A study of Mus musculus with 2 samples.

Results

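The 39 Hox genes of the mouse were set against a map of GATA4 binding in cultured skeletal muscle myoblasts. Members are all protein coding genes of a GRCm38 gene table with a symbol of Hoxa, Hoxb, Hoxc or Hoxd and a number, 39 of 21887 protein coding genes. They form 4 clusters, with 11 genes in HoxA, 10 in HoxB, 9 in HoxC and 9 in HoxD. GATA4 peaks were taken from each cluster and from 100 kb on either side of its outermost genes, and 13 of the 17539 deposited peaks had their centre there. HoxA held 6 of them, HoxC held 7, and HoxB and HoxD held 0.

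GATA4, a zinc finger transcription factor that binds GATA sequences, was mapped by chromatin immunoprecipitation and sequencing (ChIP-seq). The cells were myoblasts, muscle precursors, derived from satellite cells of the strain STOCK Myf5tm1Pas/J, which carries a targeted Myf5 allele by its name, and were kept on a collagen coat in Ham's/F10 growth medium (20% FBS, bFGF at 20 ng/ml). One library came from a mixture of anti-GATA4 antibodies (Santa Cruz C-20 and H-112, eBioscience eBioevan) and the other from control IgG, with the same strain and medium in both. Each antibody had 1 library, so the spread between replicates is unknown and no comparison has a test. Each peak has the authors' score from the peak caller MACS, which is larger for stronger peaks, has no stated scale, and serves here only to describe and rank peaks of this list. Coordinates are those of the build GRCm38. Read depth is unknown, and neither the level of any Hox transcript nor the identity of the cells was measured in these data.

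Hox genes encode homeodomain transcription factors that specify position along the head to tail axis and along the limb. In each cluster the genes are transcribed in the same direction, and those with low numbers are generally used earlier and closer to the head than those with high numbers. Genes with the same number in different clusters are paralogues that descend from 1 ancestral gene. Polycomb proteins keep stretches of these clusters silent and Trithorax proteins keep others active, and long-range enhancers lie in the gene-poor DNA on either side.

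Across the 4 windows, each a cluster with its flanks, peaks were not denser than elsewhere beyond counting error. The 13 peaks in 1.29 Mb came to 10.1 per Mb (95% Poisson interval 5.36 to 17.2), beside 7.04 per Mb over the 19 autosomes. The clusters without flanks held 6 peaks in 492 kb, or 12.2 per Mb (4.47 to 26.5). The spread among clusters was wide. The HoxA window, of 306 kb on chromosome 6, had 19.6 peaks per Mb (7.21 to 42.7), beside 6.37 per Mb over that chromosome. The HoxC window, of 316 kb on chromosome 15, had 22.2 per Mb (8.91 to 45.7), beside 8.01. The HoxB window, of 374 kb on chromosome 11, had 0 (0 to 9.86), beside 7.37. The HoxD window, of 297 kb on chromosome 2, had 0 (0 to 12.4), beside 7.10. These intervals cover counting error only. The HoxA interval lay above the density of its chromosome, as did the HoxC interval, while those of HoxB and HoxD included the density of theirs.

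Tiles of about this size with such counts were not rare in the list. Of 8210 autosomal tiles of 300 kb, 11% had at least 6 peaks, 7.11% had at least 7, and 39.3% had none. Runs of 9 neighbouring protein coding genes within 200 kb held no peak in 36.8% of 3245 cases. The empty HoxB and HoxD windows were thus of a kind that is common in this list, and windows as full as those of HoxA and HoxC were less common.

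**Figure D1:**
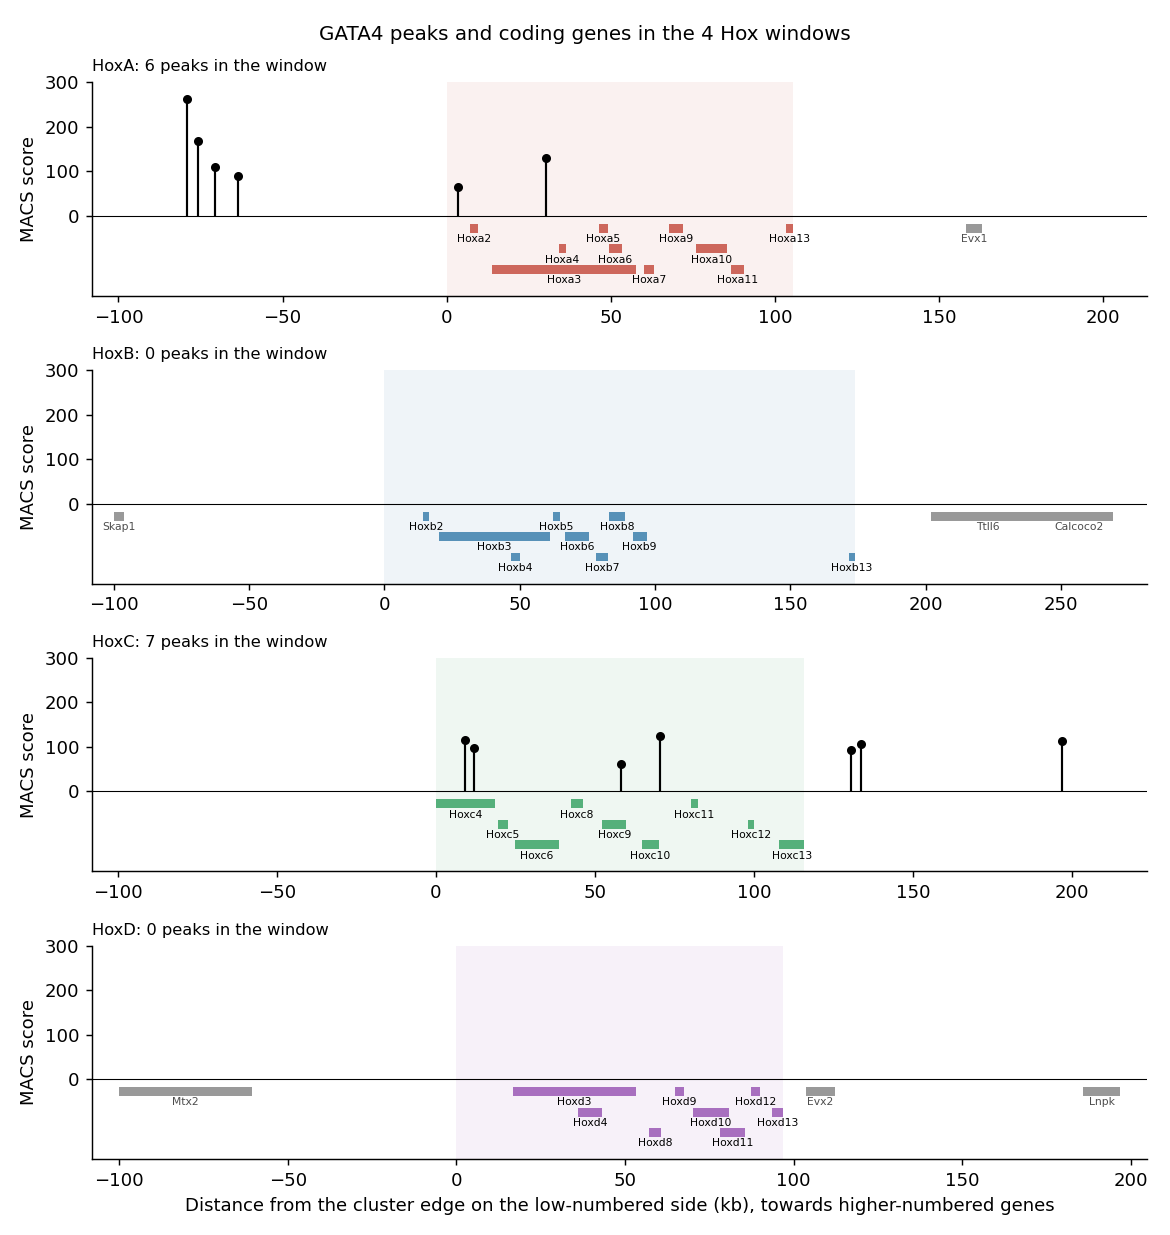
GATA4 peaks and coding genes in the 4 Hox windows. The x axis gives the distance in kb from the edge of the cluster on its low-numbered side, each cluster turned so that numbers rise to the right, and the y axis gives the MACS score of each peak (black stems at the peak centres). Coloured bars are Hox genes of paralogue groups 2 to 13, grey bars are other coding genes and the shaded stretch is the cluster. HoxA holds 6 peaks and HoxC 7, and HoxB and HoxD have none.

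In HoxA, most peaks lay outside the cluster, on the side of the low-numbered genes. A group of 4 peaks stood 63.6 to 79.0 kb outside the edge of the cluster, in the stretch between Skap2, which encodes an adaptor protein of Src family kinase signalling, and the lncRNA gene Halr1. The farthest, at chromosome 6, 52075632 to 52077078, had a score of 262, the highest of the 13 and above 96.5% of all peaks, and was 1447 bp wide. The next, at 52079510 to 52079929, had a score of 167 in 420 bp. A peak at 52084698 to 52085090 had a score of 110.4 in 393 bp. The closest to the cluster, at 52091312 to 52092276, had a score of 88.9 in 965 bp. They were separated by 2.43, 4.77 and 6.22 kb, so each had 3 others within 20 kb, as 9.72% of all peaks did, and the other 9 window peaks did not. Of 24611 autosomal tiles of 100 kb, the length of a flank, 3.95% had at least 4 peaks. Skap2 was the nearest protein coding gene of the outer pair, at 63.8 and 67.2 kb. The centre of the peak closest to the cluster was 11.2 kb from Halr1.

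Within HoxA there were 2 peaks, both on the side of the low-numbered genes. Hoxa2, a selector of second branchial arch identity, was 3.74 kb from one with a score of 65.2, above 8.87% of the list, and a width of 729 bp. The other peak, at 52185168 to 52186242, had a score of 131 in 1075 bp. It lay inside the long gene model of Hoxa3, which takes part in the development of throat organs, inside the lncRNA gene LOC115490409, and 3.98 kb from Hoxa4, a gene of the neck vertebrae. From there to the far edge of the window, past Hoxa5 to Hoxa13, Hottip and the homeobox gene Evx1, no peak was called. The next one, with a score of 209, stood at 52368306 to 52369560, 108 kb beyond Hoxa13 and just outside the window. On the other side the next peak outside had a score of 64.8 and lay 0.263 kb from an end of Skap2.

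In HoxC, peaks were spread over the cluster and over the flank beyond Hoxc13. The peak nearest to any Hox gene end was that of Hoxc10, a gene of the lumbar and hindlimb region. It ran from 102965731 to 102967164 on chromosome 15, with a score of 125 and a width of 1434 bp. It overlapped the lower-coordinate end of the gene, and its centre was 0.349 kb outside. The same peak was 9.75 kb from Hoxc11, another high-numbered gene of the trunk and hindlimb. Hoxc9 had a peak inside the gene at 102978131 to 102978922, 1.49 kb from its lower-coordinate end. Its score of 62.5 was the lowest of the 13, above 4.09% of the list, and its width was 792 bp. This peak, too, was within 10 kb of Hoxc10. Hoxc4, the lowest-numbered gene of the cluster, held a pair of peaks 1.52 kb apart. One, at 103024577 to 103025376, had a score of 97.4 in 800 bp. The other, at 103026897 to 103028267, had a score of 116 in 1371 bp and overlapped the lncRNA gene Gm30528. Hoxc5 was within 10 kb of the first of these, at 7.55 kb.

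The 3 flank peaks of HoxC lay on the side of the high-numbered genes, the opposite of HoxA. Tiles of 100 kb had at least 3 peaks in 8.22% of cases and at least 1 in 36.7%, or in 55.1% of those with at least 5 protein coding genes. At 14.7 and 17.9 kb beyond Hoxc13, a gene of hair and nail formation, there were peaks with scores of 92.4 (102906062 to 102906732, 671 bp) and 106 (102902818 to 102903683, 866 bp). Another, with a score of 114 and a width of 949 bp, was 81.1 kb away (102839594 to 102840542). The first peak outside on that side, at 136 kb, had a score of 71.5. On the Hoxc4 side no peak was called until 136 kb, where a peak with a score of 67.5 stood 3.67 kb from Smug1, which encodes a uracil DNA glycosylase. Hotair, the lncRNA gene between Hoxc12 and Hoxc11, was 18.5 kb from its nearest peak.

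Counted by gene, 8 of the 39 Hox genes, or 20.5%, lay with one of their ends at most 10 kb from the centre of a peak (exact 95% interval 9.30% to 36.5%, for counting error only), as did 26.2% of all protein coding genes. Among the 8 were Hoxa2 and Hoxa4 of HoxA, and Hoxc4, Hoxc5, Hoxc9, Hoxc10 and Hoxc11 of HoxC. Windows of neighbouring Hox genes overlap, and the 6 peaks within the clusters made up all 8 calls, so these genes are not independent. HoxA had 3 of 11, beside 27.7% of the genes of its chromosome, and HoxC 5 of 9, beside 30.5%. HoxB had 0 of 10, beside 31.1%, and HoxD 0 of 9, beside 22.9%. Among protein coding genes with at least 5 others within 50 kb, 29.6% had a peak within 10 kb. At 10 kb the Hox share was thus below that of all protein coding genes, which its interval included. At the limit of 10 kb, Hoxc11 was just inside at 9.75 kb and Hoxa3 just outside at 10.4 kb.

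Other limits on the distance gave other counts. The HoxB and HoxD windows hold no peak, so up to 100 kb only genes of HoxA and HoxC could be counted. Within 1 kb of an end only Hoxc10 had a peak, 1 of 39 (2.56%) beside 9.47% of all protein coding genes. A peak centre lay inside 4 of the genes, Hoxa3, Hoxc4 and Hoxc9 among them, beside 21.0% of all, and 9 had one inside or within 10 kb, beside 33.3%. Within 50 kb there were 18 of 39 (46.2%), beside 56.0%, and within 100 kb 20 of 39 (51.3%), beside 69.7%. Those 20 are every gene of HoxA and HoxC and no gene of HoxB or HoxD. By each of these counts the Hox share was below that of all protein coding genes.

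Among paralogue groups 2 to 13, peaks within 10 kb were found at members of groups 2, 4, 5, 9, 10 and 11. Group 4 alone had 2 such members, Hoxa4 and Hoxc4, out of 4. Groups 3, 6, 7, 8, 12 and 13 had none. Of 9 genes in groups 2 to 4, 3 had a peak, of 11 in groups 5 to 8, 1 did, and of 16 in groups 9 to 13, 3 did, beside 26.2% of all protein coding genes. Among HoxA and HoxC genes alone, these numbers were 3 of 4, 1 of 6 and 3 of 9. None of groups 2 to 13 could have a peak near all of its members. Each has a member in HoxB or HoxD, whose windows hold no peak. Hoxa9, Hoxb9 and Hoxd9 had none where Hoxc9 did, and Hoxb2 had none where Hoxa2 did.

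**Figure D2:**
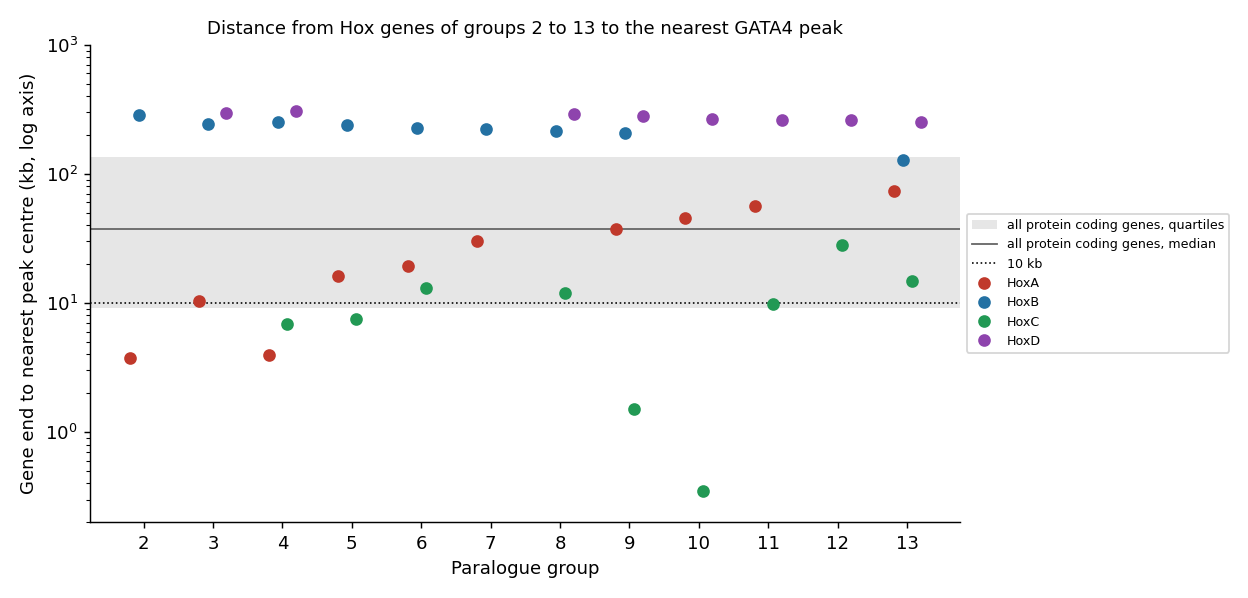
Distance from Hox genes of paralogue groups 2 to 13 to the nearest GATA4 peak. The y axis (log scale) is the distance in kb from the nearer gene end to the nearest peak centre, the x axis is the paralogue group, and colours are clusters. Grey marks the quartiles and the line the median, 37.5 kb, of all protein coding genes. HoxB and HoxD genes lie at 129 to 305 kb, and HoxA and HoxC genes at 0.349 to 73.1 kb.

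Distances to the nearest peak divided the clusters into pairs without overlap, a pairing made after the values were seen. The 20 genes of HoxA and HoxC were 0.349 to 73.1 kb from a peak, with a median of 12.6 kb. The 19 genes of HoxB and HoxD were 129 to 346 kb away, with a median of 258 kb. The median of all protein coding genes was 37.5 kb, with quartiles of 9.09 and 135 kb. Within HoxA the distance grew along the cluster from Hoxa5 (16.0 kb) through Hoxa9 (37.4 kb) to Hoxa13 (73.1 kb), since no peak was called beyond the one near Hoxa4. In HoxC the farthest gene was Hoxc12, at 27.8 kb, and Hoxc6 was at 13.1 kb. More than 250 kb separated 12 Hox genes from a peak, namely all 9 of HoxD and Hoxb1, Hoxb2 and Hoxb4. Such a distance was found for 16.3% of protein coding genes, and a distance over 100 kb, which all 19 genes of HoxB and HoxD exceeded, for 30.3%.

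HoxD lay in a stretch of 1226 kb without a peak, from 74416990 to 75643206 on chromosome 2. This stretch reached 251 kb beyond Hoxd13 and 878 kb beyond Hoxd1. In it were also Lnpk, which encodes an endoplasmic reticulum junction protein, the homeobox gene Evx2, the mitochondrial protein gene Mtx2 and Gm50595. The peaks that bound it had scores of 90.2 in 938 bp and 213 in 402 bp. Most of the known limb enhancers of this cluster are in the gene-poor DNA on either side. Their positions were not used here, so which of them lie in the stretch of 1226 kb was not examined. HoxB lay in a stretch of 764 kb, from 96065657 to 96829447 on chromosome 11, which reached 129 kb beyond Hoxb13 and 461 kb beyond Hoxb1. It also held Atp5g1, Calcoco2, Ttll6, Skap1, Snx11 and Cbx1. The bounding peaks had scores of 97.0, 0.064 kb from Ube2z, and 63.8, inside Nfe2l1.

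Long stretches without peaks are a common feature of this list. Between neighbouring autosomal peaks there were 17313 gaps with a median of 45.6 kb. Of these, 511, or 2.95%, were at least as long as that of HoxB, and together they made up 36.9% of all gap length and held 20.3% of autosomal protein coding genes. For HoxD the numbers were 265 gaps, 1.53%, 27.1% of gap length and 12.9% of genes. The gaps of this size held a median of 3 coding genes for HoxB and 4 for HoxD, whereas that of HoxB held 16 and that of HoxD 13. Of the 511, 75 held at least 16 coding genes, and of the 265, 53 held at least 13.

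**Figure D3:**
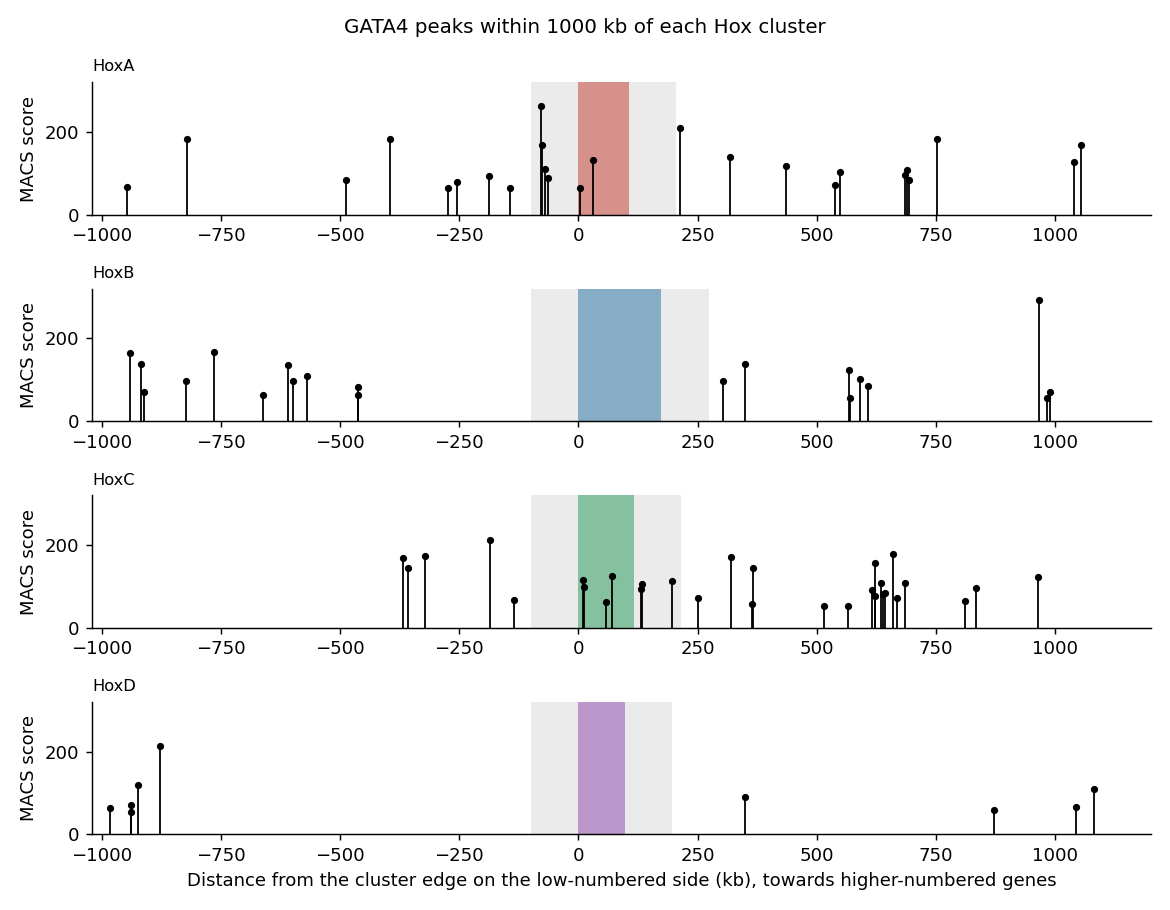
GATA4 peaks within 1000 kb of each Hox cluster. Each stem is a peak, placed by its distance in kb from the edge of the cluster on its low-numbered side (x axis) and with its MACS score as height (y axis). The coloured band is the cluster and the grey band its 100 kb flanks. HoxB and HoxD stand in stretches of 764 and 1226 kb without a peak, and peaks around HoxA and HoxC continue on both sides.

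Farther out, densities were similar for the 4 clusters together. They had 8.75 peaks per Mb within 100 kb of the clusters, 10 between 100 and 250 kb, 10 between 250 and 500 kb and 9.75 (6.93 to 13.3) between 500 and 1000 kb. HoxD had 0 peaks up to 250 kb and 1 between 250 and 500 kb, and then 8 between 500 and 1000 kb. HoxB had 2 between 100 and 250 kb, 6 between 250 and 500 kb and 12 between 500 and 1000 kb. HoxA had 4, 7 and 8 in these rings and HoxC 6, 6 and 11.

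Scores of the Hox window peaks were ordinary for the list. The median of the 13 was 110.4, with a range from 62.5 to 262, beside 99.3 for all peaks, and 8 of 13 were above that value. The 6 peaks within the clusters had a median of 107 and the 7 flank peaks 110.4. Widths had a median of 866 bp and a range from 393 to 1447 bp, beside 745 bp for all peaks, and 9 of 13 were wider than the list's median. The 4 peaks wider than 1000 bp were the outermost of HoxA, the one near Hoxa4, that of Hoxc10 and 1 of the pair in Hoxc4. The narrow peaks of the HoxA flank, with scores of 167 and 110.4, had scores that 236 and 607 peaks of the list hold exactly. The 12 most frequent score values were held by 25.5% of peaks, whose median width was 493 bp, beside 801 bp for the others. None of the other 11 Hox window peaks held one of these values.

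**Figure D4:**
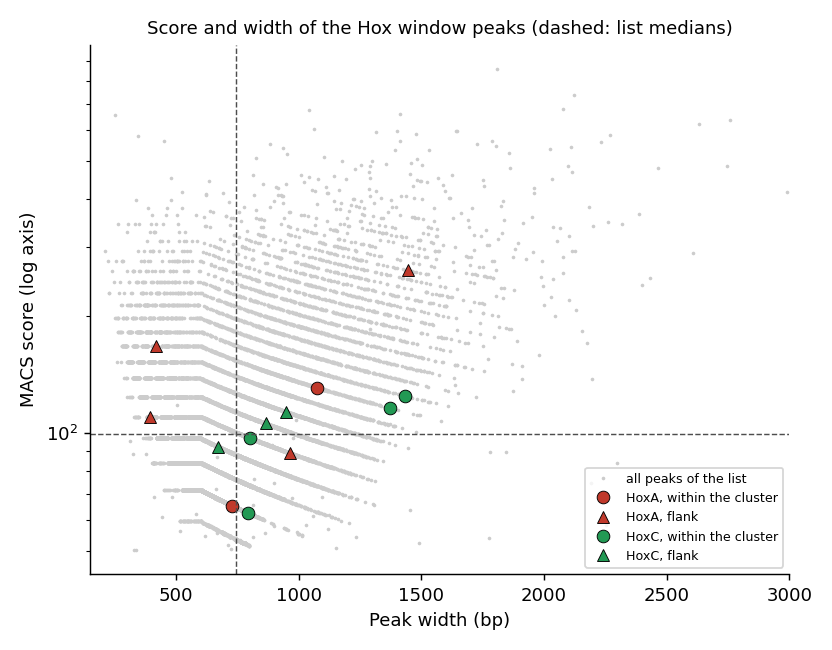
Score and width of the 13 Hox window peaks against the list. The x axis is peak width in bp, the y axis the MACS score on a log scale, grey points are all 17539 peaks and dashed lines are the list's medians. Circles lie within a cluster and triangles in a flank, in red for HoxA and green for HoxC. Scores of the list fall along separate lines, level for narrow peaks and falling with width, and the highest Hox window peak is in the HoxA flank, with a score of 262.

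Promoter sequence could be read for 22 of the 39 genes, with 24 start sites, from a RefSeq table of GRCm38.p6 that gives 250 bases before and 50 after each start. All matched genes of HoxA were on the minus strand, and those of HoxB, HoxC and HoxD on the plus strand. None of the 24 windows was overlapped by a peak, beside 6.1% of the 32851 windows of the table. Of the 24, 10 were of HoxA, 3 of HoxB, 1 of HoxC and 10 of HoxD, so most HoxC promoters were not seen. Hoxc10, whose lower-coordinate end a peak overlapped, was not among the 22. On the plus strand, that of the 1 matched HoxC gene, this end is the start of Hoxc10. The matched promoters nearest to a peak were those of Hoxa2, at 5.75 kb, and Hoxc4, at 5.88 kb. Counted upstream, the peak nearest to Hoxa2 was at -6.16 kb from its start, which is downstream of it. The pair in Hoxc4 was 6.81 and 9.42 kb upstream of the Hoxc4 start listed, which lies inside the gene model. From the lower-coordinate end of that model, its start on the plus strand, the pair was 6.9 and 9.5 kb downstream. These upstream sequences are shown because they are the Hox promoters in the table closest to GATA4 peaks, the first at chr6:52164832-52165081 on the minus strand and the second at chr15:103034145-103034394 on the plus strand.
Hoxa2: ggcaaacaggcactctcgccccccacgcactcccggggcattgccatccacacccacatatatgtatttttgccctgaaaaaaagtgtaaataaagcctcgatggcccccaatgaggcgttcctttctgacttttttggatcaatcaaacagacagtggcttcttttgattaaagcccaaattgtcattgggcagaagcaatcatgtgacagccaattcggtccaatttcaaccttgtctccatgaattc
Hoxc4: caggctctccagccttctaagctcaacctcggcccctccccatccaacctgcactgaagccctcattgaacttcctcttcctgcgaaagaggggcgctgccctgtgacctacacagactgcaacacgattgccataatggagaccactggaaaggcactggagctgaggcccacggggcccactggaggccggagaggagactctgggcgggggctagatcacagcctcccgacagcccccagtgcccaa
They hold no GATA word, so neither has capitals. The GATA words searched, on both strands, were AGATAA as well as AGATAG, followed by TGATAA as well as TGATAG.

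Such words were found in 7 of the 24 Hox promoter windows, or 29.2%, beside 29.8% of all windows. They are written below as 30 bases with the word in capitals, to show Hox promoters that hold a word and are overlapped by no peak. The position is that of the word's first base, counted from the start site, with negative numbers before it. In HoxA they were in Hoxa7 (-98), Hoxa9 (-17) and the second Hoxa10 start (23), in HoxB in Hoxb8 (-28), and in HoxD in Hoxd8 (-140), Hoxd10 (-141) and Hoxd12 (-106). In Hoxa9 and Hoxd8 the word reads as searched, and in the other 5 its reverse complement is in capitals. On the minus strand, the bases shown lie at chr6:52218654-52218683 (Hoxa7), chr6:52227370-52227399 (Hoxa9) and chr6:52234900-52234929 (Hoxa10). On the plus strand, they lie at chr11:96281865-96281894 (Hoxb8), chr2:74704463-74704492 (Hoxd8), chr2:74691738-74691767 (Hoxd10) and chr2:74674895-74674924 (Hoxd12).
Hoxa7: ccttcacccgacCTATCAttgcagggggag
Hoxa9: aaaaaagtggggTGATAGaggaataggagg
Hoxa10: agccagaaagggCTATCTgctcccttcgcc
Hoxb8: atagttaaacctTTATCAataataaggaaa
Hoxd8: tttgattcgcttTGATAAggtcaggattcg
Hoxd10: ctccaacgcgcaCTATCAcaggcgcttagt
Hoxd12: gaacattgagtgTTATCAtaataccctgaa
These promoter windows were 32.3 kb (Hoxa7), 41.1 kb (Hoxa9), 48.6 kb (Hoxa10), 216 kb (Hoxb8), 287 kb (Hoxd8), 275 kb (Hoxd10) and 258 kb (Hoxd12) from the nearest peak. In the whole table, 23.8% of the 2004 windows overlapped by a peak held a word, beside 30.2% of those that were not. The overlapped windows also had a higher median GC content, 59.7% beside 52.3%, and more CG pairs, a median of 20 beside 6. These shares were not adjusted for base composition, and its part in them was not tested. Hox promoters had a median GC content of 57.7%, from 39.7% in Hoxd4 to 81.0% in Hoxa13, beside 52.7% for all windows. Their median number of CG pairs was 14.5, beside 7 for all. Sequence under the peaks themselves was not used here.

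MicroRNA genes of the clusters give small RNAs that repress Hox and other transcripts. There were 6 of them, and 2, both in HoxC, lay within 10 kb of a peak, beside 16.0% of all 1228 microRNA genes. Mir196a-2, between Hoxc10 and Hoxc9, was 5.09 kb from the nearest peak, and Mir615, within Hoxc5, was 9.98 kb away. Mir196a-1 in HoxB gives the same mature 5p sequence as Mir196a-2, and it was 200 kb from a peak. Mir196b in HoxA was 44.4 kb away, Mir10a in HoxB 252 kb and Mir10b in HoxD 310 kb. The mature sequences, from RefSeq (GRCm38.p6), are shown with the seed in capitals (bases 2 to 8), those of miR-196 and miR-10 to compare loci that share a seed, and that of miR-615 because its gene was within 10 kb of a peak. The seed AGGUAGU is shared by the miR-196 sequences and ACCCUGU by those of miR-10.
miR-196a-5p: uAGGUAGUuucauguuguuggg
miR-196b-5p: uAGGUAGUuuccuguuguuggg
miR-10a-5p: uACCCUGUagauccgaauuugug
miR-10b-5p: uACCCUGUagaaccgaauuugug
miR-615-3p: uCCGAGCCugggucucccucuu

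Of 24 lncRNA genes within the clusters, 6 had a peak within 10 kb, near the background of 22.2% of all 12727 lncRNA genes. They were 5 of HoxA (Hoxaas2, 5730596B20Rik and LOC115490409 among them) and 1 of HoxC (Gm36878). Those of HoxD, such as Haglr at 332 kb, and of HoxB, such as Hoxb3os at 278 kb, had none. Of the 7 other protein coding genes that reach into the windows, 0 had a peak inside or within 10 kb, beside 33.3% of all protein coding genes. All but Evx1 lie in the stretches without a peak around HoxB and HoxD, so these genes are not independent. Evx1 and Evx2, homeobox genes next to HoxA and HoxD, were 50.5 and 236 kb from a peak.

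Genes of the Hox regulatory network were read from 6 lists with 88 genes, of which 31, or 35.2%, had a peak within 10 kb, again beside 26.2% of all protein coding genes. Of 9 TALE homeodomain genes, which encode DNA-binding partners of Hox proteins, 5 had a peak (55.6%, exact 95% interval 21.2% to 86.3%). The highest-scoring were at Pbx3 (score 291 at 0.8 kb), Pknox2 (151 at 6.29 kb), Pknox1 (124 at 9.92 kb) and Meis1 (119.7 at 0.557 kb). Of 29 Polycomb genes, which keep Hox genes silent, 11 had one (37.9%, 20.7% to 57.7%), with Aebp2 (311 at 3.59 kb), Rbbp4 (214 at 2.62 kb), Mtf2 (167 at 0.064 kb) and Pcgf5 (156 at 9.73 kb) highest. Of 12 Trithorax and MLL complex genes, which oppose Polycomb, 5 had one (41.7%, 15.2% to 72.3%), and the highest were at Psip1, Dot1l, Men1 and Kdm6b, with scores of 138, 138, 120.0 and 101.

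Of 15 genes of retinoic acid signalling and other Hox regulators, 7 had a peak (46.7%, 21.3% to 73.4%). The neighbours Cyp26c1 and Cyp26a1 share 1 peak with a score of 68.3, so these 7 are not independent. Aldh1a2, which makes retinoic acid, stood 7.04 kb from a peak that scored 304, and Egr2, the hindbrain factor Krox20, 7.45 kb from one that scored 170.3. Rxra and Gdf11 followed with 97.0 and 78.1. The remaining lists hold other homeobox genes, of which Evx1 and Evx2 lie in the HoxA and HoxD windows. Of 8 Evx and ParaHox genes only Cdx1 had a peak (12.5%, 0.316% to 52.7%), with a score of 133 at 8.31 kb. Of 15 Dlx, Irx and Msx genes only Dlx1 and Dlx2 did (13.3%, 1.66% to 40.5%). They share 1 peak with a score of 81.9, 0.301 kb from an end of Dlx2. Dlx2 had 2 peaks within 10 kb, the other with a lower score and 0.266 kb from an end. The interval of each of these lists included 26.2%.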

How the data were processed

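Paired reads of 150 bp came from 1 GATA4 and 1 IgG ChIP library of fixed myoblasts. CASAVA 1.8, Bowtie and the build GRCm38 (mm10) are named, per the submitters' processing notes. Per the file header, the authors called peaks with MACS in Galaxy and deposited 1 list with a MACS score per peak. Not given in the sources used here: MACS version, threshold, duplicate handling, and whether IgG served as control. The cell type cannot be checked against expressed markers. No read counts were used, so depth is unknown and no IgG background can be set beside a peak.

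Peak starts were made 1-based and peaks were placed by their centre. Genes came from a RefSeq table of GRCm38.p6 (no strand or exons) and promoters and microRNAs from RefSeq tables of that build. Shares have exact (Clopper-Pearson) and densities exact Poisson 95% intervals, computed with SciPy 1.17.1. Distance assignment was tested on simulated data. The genes named are the members, all window peaks, the other genes they touch and up to 4 members of each related list by score. The members and lists were chosen with earlier results of these data known. One member enters the counts and is not reported here by itself.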

Additional observations from a re-analysis of the deposited data

How the results depend on the processing

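The number of Hox genes with a peak nearby, 8 within 10 kb, was 1 within 1 kb, 18 within 50 kb and 4 among peaks above the median score, where 12.8% of all protein coding genes had one. It was 9 when peaks inside the gene were added, beside 33.3% of all protein coding genes. It was 8 when any base of the peak was counted. Leaving out peaks with the 12 most frequent scores, chosen after seeing the data, also gave 8. With each peak given to its nearest coding gene at any distance, 6 Hox genes had one, a partly different set. It took in Hoxa3 and Hoxc13 and left out Hoxa2, Hoxa4, Hoxc5 and Hoxc11, and no share of all genes is given for that rule. The number of peaks in the windows, 13 with flanks of 100 kb, was 8 with 50 kb, 25 with 250 kb, 6 without flanks and 8 above the median score, as the window length or the number of peaks also changed. Without the frequent scores it was 11. The density stayed within its Poisson interval under each alternative and was lowest without HoxC (6.15 per Mb) and highest without HoxB (14.2 per Mb). For peaks above the median score it was 6.19 per Mb, beside 3.53 per Mb of such peaks over the autosomes. That value comes from a smaller set of peaks than the interval. The median score was between 102 and 110.4 with other flanks. For the 88 related genes, 31 with a peak within 10 kb, the number was 48 within 50 kb and 6 within 1 kb. Both of these limits were chosen after seeing the data. Of all protein coding genes, 56.0% had a peak within 50 kb and 9.47% within 1 kb. At both limits the share of the related genes was below that of all protein coding genes. At 10 kb it was above, with 35.2% beside 26.2%. No paired analysis was possible because there was 1 library per antibody.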
